A study of Mus musculus with 16 samples.

Results

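The miR-210 hairpin of the mouse gives rise to the mature arms mmu-miR-210-5p and mmu-miR-210-3p, and these 2 mature miRNAs, of 1167 in the deposited count table, were followed by name. The hairpin was selected on the measured levels of these same libraries, in which its 5p arm swung over the serum course and its 3p arm stayed level, so the levels below are a description. Each arm was counted as the sum of its reads over 8 sequence classes. Small RNA was sequenced from 3T9 fibroblasts, a spontaneously immortalised line grown from mouse embryos. All cells were first held without serum for 72 h to make them quiescent and were then given complete medium with 10% fetal bovine serum. The times analysed were 0 h, at the end of the deprivation, and 1, 2, 4, 6, 8, 10 and 12 h after serum was given. Each time has 2 libraries, from independent experiments numbered 1 and 2 (16 libraries, each from 1000 ng of total RNA).

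In animals a miRNA hairpin is cut by Drosha in the nucleus and by Dicer in the cytoplasm, which leaves a short duplex of a 5p and a 3p strand. Argonaute keeps mostly the guide strand, which pairs with target mRNAs through its seed, while the other strand, the passenger, is usually lost soon after. Transcription of miR-210 is induced by the hypoxia-inducible factor HIF-1, and miR-210-3p, its guide, is known for repressing the iron-sulfur cluster scaffold ISCU, and with it mitochondrial respiration, in hypoxic cells.

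The sequences are shown because the comparison is between strands of 1 hairpin. They are RefSeq sequences on build GRCm38.p6, and both members were matched by name. The hairpin lies on the minus strand of chromosome 7 (chr7:141221384-141221493), overlaps no other gene annotated in GENCODE M21 and stands between Rassf7, which ends 2725 bases below it, and Phrf1, which starts 7290 bases above it. The genome build used for the counts is not given in the sources used here. In the arms the capitals mark the seed, bases 2 to 8, and in the hairpin they mark the mature arms.
miR-210-5p (chr7:141221445-141221466): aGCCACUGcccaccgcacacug
miR-210-3p (chr7:141221407-141221428): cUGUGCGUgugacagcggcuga
Mir210 hairpin: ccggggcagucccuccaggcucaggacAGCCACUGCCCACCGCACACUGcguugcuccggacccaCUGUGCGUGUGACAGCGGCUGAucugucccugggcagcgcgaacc
Both arms are 22 bases long, with 15 G or C bases in the 5p arm and 14 in the 3p arm. The 5p arm starts with A and the 3p arm with C. No other mature mouse miRNA in the RefSeq table shares either seed.

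Libraries held 5852087 to 7783249 miRNA reads. Levels are given in CPM, reads scaled to a common depth with TMM, which takes its scale from the bulk of the miRNAs. The fibroblast markers chosen for this check, among them miR-143-3p and miR-199a-3p, summed to 177189 to 266635 CPM. The summed markers of blood (0.299 to 1.76 CPM), liver (0 to 0.629 CPM), epithelium (1.82 to 6.64 CPM) and muscle (0.979 to 2.67 CPM) were low in every library, and miR-142a-3p, miR-223-3p, miR-122-5p and miR-1a-3p had a median of 0 CPM. Of the 2 neuronal markers miR-124-3p had no entry, and miR-9-5p stood at 3.92 to 10.4 CPM. All libraries of experiment 1 shared 1 code in the headers of the counts, and all of experiment 2 shared another. Any batch that this code marks cannot be told apart from the experiment.

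miR-210-3p was the more abundant arm and moved little. It had 819 to 1213 reads per library and a mean of 146.9 CPM, rank 125 of 1167 mature miRNAs. miR-210-5p, its passenger, had 51 to 222 reads per library and a mean of 17.5 CPM, rank 234. Over all libraries the 5p arm made up 10.7% of the reads of the hairpin. Both members passed the filter on low counts.

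The level of miR-210-5p went down, up and down again within 12 h. It stood at 21.8 and 16.4 CPM at 0 h (experiments 1 and 2), at 10.6 and 10.7 CPM after 1 h of serum, and at 9.93 and 9.81 CPM after 2 h. All 4 libraries of 1 and 2 h thus lay below both libraries of 0 h. At 4 h the arm stood at 27.5 and 28.9 CPM, and at 6 h at 31.2 and 35.5 CPM, its highest level. These 4 libraries lay above all the other 12. At 8 h it was at 17.4 and 19.2 CPM, within the span of the 0 h libraries. It was lower again at 10 h, with 12.1 and 7.73 CPM, and at 12 h, with 12.0 and 8.96 CPM. The highest time mean, 33.4 CPM at 6 h, was 3.38 times the lowest, 9.87 CPM at 2 h.

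Ordered by mean level of miR-210-5p, the times were 6, 4, 0, 8, 1, 12, 10 and 2 h. The libraries of 6 h did not overlap those of 4 h, those of 4 h did not overlap those of 0 h, and those of 8 h did not overlap those of 1 h. The 0 h and 8 h libraries overlapped, and so did each neighbouring pair among 1, 12, 10 and 2 h. In the fit over all 449 miRNAs past the filter, the log2 difference of miR-210-5p from 0 h was -0.84 ± 0.23 (SE) at 1 h, -0.95 ± 0.23 at 2 h, 0.56 ± 0.22 at 4 h and 0.80 ± 0.22 at 6 h. At 8 h it was -0.06 ± 0.22, at 10 h -0.95 ± 0.23, and by 12 h -0.86 ± 0.23. Without 0 h replicate 1, the higher of its libraries, the 8 h difference was 0.19 and those of 1, 2, 4, 6, 10 and 12 h kept their sign (-0.58, -0.65, 0.82, 1.09, -0.68 and -0.61).

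miR-210-3p showed no such swing in the same libraries. It stood at 169.7 and 126.0 CPM at 0 h, at 162 and 138 CPM at 1 h, and at 141 and 124 CPM at 2 h. At 4 h it was at 152 and 122 CPM, and at 6 h, where the 5p arm was highest, at 157 and 159 CPM. Up to 4 h experiment 1 was the higher at every time. At 8 h it was at 146 and 150.01 CPM, at 10 h at 152 and 146 CPM, and at 12 h at 158 and 147 CPM. The highest time mean was 1.19 times the lowest, and in the order of levels every time overlapped its neighbours.

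The log2 differences of miR-210-3p from 0 h lay between -0.16 ± 0.17 (SE) at 2 h and 0.10 ± 0.17 at 6 h. Their signs cannot be relied on: scaled to total counts, the 12 h difference was -0.11 and not 0.04, and the 10 h difference -0.12 and not 0.01. Without 0 h replicate 1 all 7 differences were above 0 (0.15 to 0.39), and without 0 h replicate 2 all were below (-0.35 to -0.09). Among the 449 tested miRNAs 95.3% had a smaller range of time means than miR-210-5p and 11.6% a smaller range than miR-210-3p. In these bulk samples, fewer cells with the miRNA and less of it per cell cannot be told apart.

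**Figure D1:**
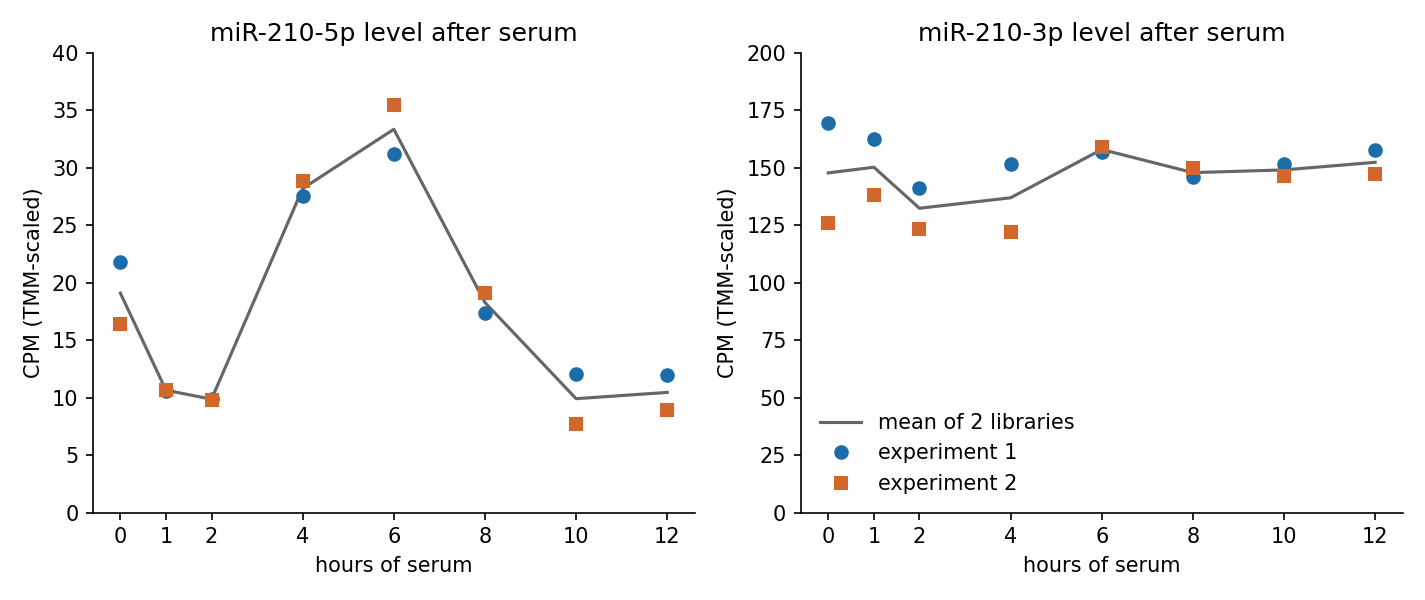
Level of miR-210-5p (left) and miR-210-3p (right) in CPM on linear axes from 0, against hours of serum; circles are experiment 1, squares experiment 2 and the line joins the means of the 2 libraries. The 5p arm peaks at 33.4 CPM at 6 h with troughs near 10 CPM at 1 to 2 h and 10 to 12 h, while the means of the 3p arm stay between 132 and 158 CPM.

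The share of the 5p arm among the reads of both arms needs no scaling between libraries, since both are counted in the same library. At 0 h it was 11.4% in experiment 1 (95% Clopper-Pearson interval 9.76% to 13.2%) and 11.5% in experiment 2 (9.64% to 13.6%). At 1 h it was 6.13% (4.89% to 7.59%) and 7.19% (5.67% to 8.95%), and at 2 h 6.57% (5.15% to 8.22%) and 7.35% (5.72% to 9.28%). In each experiment the intervals of 1 and 2 h lay below that of 0 h. The share was 15.4% (13.5% to 17.3%) and 19.1% (16.9% to 21.5%) at 4 h, and 16.6% (14.6% to 18.7%) and 18.2% (16.04% to 20.6%) at 6 h. There were thus 4.23 to 5.51 reads of the 3p arm for each 5p read at 4 and 6 h, against 12.6 to 15.3 at 1 and 2 h. At 8 h the share was 10.7% and 11.3%, at 10 h 7.38% and 5.01%, and at 12 h 7.05% and 5.74%. These intervals cover counting error only, as the reads carry no molecular identifiers.

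**Figure D2:**
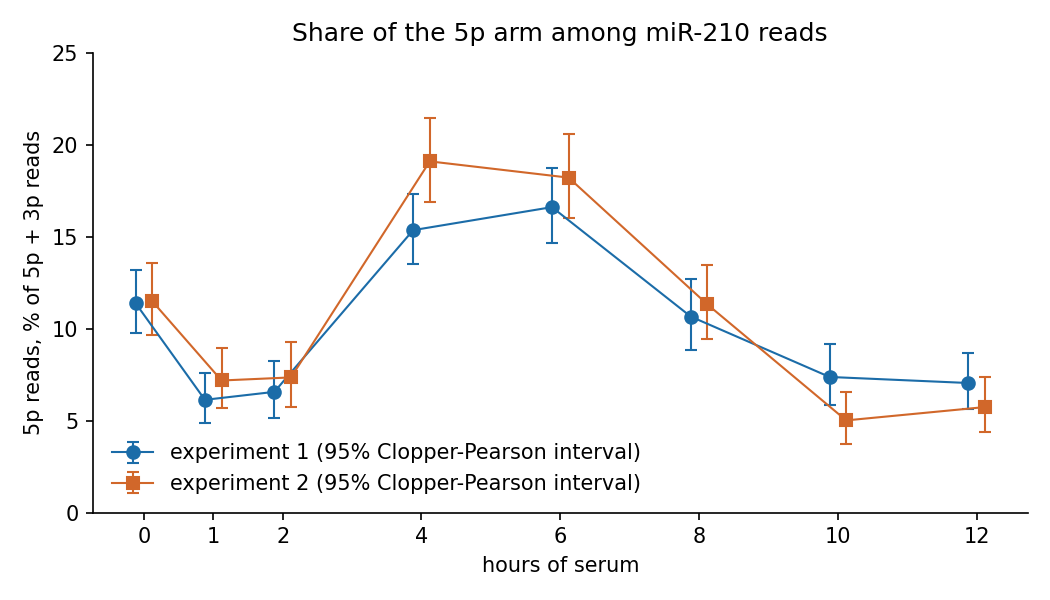
Reads of miR-210-5p as a percentage of all miR-210 reads in each library, against hours of serum, with 95% Clopper-Pearson intervals for counting error; circles are experiment 1 and squares experiment 2. Both experiments trace the same course, with 15.4% to 19.1% at 4 and 6 h, 10.7% to 11.5% at 0 and 8 h, and 5.01% to 7.38% at 1, 2, 10 and 12 h.

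The arm difference was tested by time in a fit of both arms of every hairpin, with a term for each library that takes up depth and scaling. Of 401 hairpins with both arms named alike in the table, 124 had both arms past the filter. The 5p to 3p ratio of miR-210 changed over the 7 later times (adjusted p = 0.00013, quasi-likelihood test in edgeR, Benjamini-Hochberg over the 124 hairpins). Because the hairpin was chosen for this difference, the p-value describes it and is no independent evidence. The same holds for every later p-value and call on the arm ratio of miR-210. Arm ratios of 16 hairpins, 12.9% of those tested, passed the same test. miR-155 and miR-129b had smaller p-values (adjusted p = 7.08e-07 and 7.09e-05, edgeR quasi-likelihood test). The range of time means of the log2 ratio was 1.69 for miR-210, rank 21 of 124, against a median of 0.81 over all hairpins.

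Between 2 and 4 h the ratio of miR-210 rose by 1.47 ± 0.26 on the log2 scale (SE; 2.77-fold; adjusted p = 0.00161, edgeR quasi-likelihood test), by 1.36 in experiment 1 and 1.57 in experiment 2. The ratio of 2 of the 124 hairpins (1.61%) was called for this step. No other step between successive times was called for miR-210. The ratio differed by -0.86 ± 0.26 between 1 and 0 h, by -0.77 ± 0.25 between 8 and 6 h and by -0.91 ± 0.27 between 10 and 8 h (adjusted p = 0.253, 0.31 and 0.194, edgeR quasi-likelihood test), with the same sign in both experiments each time. At these steps none of the 124 hairpins was called (0%), and the miR-210 p-values before adjustment were 0.00407, 0.00712 and 0.00312. At the step to 2 h 3.23% of hairpins were called, and at those to 6 h and 12 h 0%. Between 2 and 1 h, 6 and 4 h, and 12 and 10 h the estimates were 0.07 ± 0.27, 0.03 ± 0.25 and 0.06 ± 0.27, with approximate 95% intervals of -0.50 to 0.64, -0.49 to 0.54 and -0.52 to 0.64.

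Against 0 h the ratio of miR-210 fell by 0.98 on the log2 scale at 10 h (SE 0.26; 0.507-fold; adjusted p = 0.0233, edgeR quasi-likelihood test) and by 0.92 at 12 h (SE 0.26; 0.529-fold; adjusted p = 0.0229). Arm ratios of 13 hairpins (10.5%) were called at 10 h and of 17 (13.7%) at 12 h. Both calls were lost without 0 h replicate 1 (-0.99 and -0.93) or 0 h replicate 2 (-0.97 and -0.91). The 10 h call was also lost without 10 h replicate 2 (-0.70), and the 12 h call without either 12 h library (-1.08 and -0.77). Without a low-count filter both calls ended (adjusted p = 0.0793 and 0.118, edgeR quasi-likelihood test), and with reference reads only the 12 h call did (-0.70, adjusted p = 0.181).

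At the other times the ratio was not called against 0 h. For 1, 2, 4, 6 and 8 h in turn its log2 difference was -0.86 ± 0.26 (SE), -0.79 ± 0.26, 0.68 ± 0.25, 0.70 ± 0.25 and -0.07 ± 0.26 (adjusted p = 0.253, 0.137, 0.14, 0.128 and 0.9, edgeR quasi-likelihood test). Of the 124 hairpins 0%, 2.42%, 8.87%, 6.45% and 5.65% were called at these times. With the experiment as a block the 6 h rise passed (0.70, adjusted p = 0.0488, edgeR quasi-likelihood test). As a straight line over the whole course the slope of the log2 ratio was -0.036 ± 0.0385 per hour (adjusted p = 0.531; 21.8% of hairpins called).

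**Figure D3:**
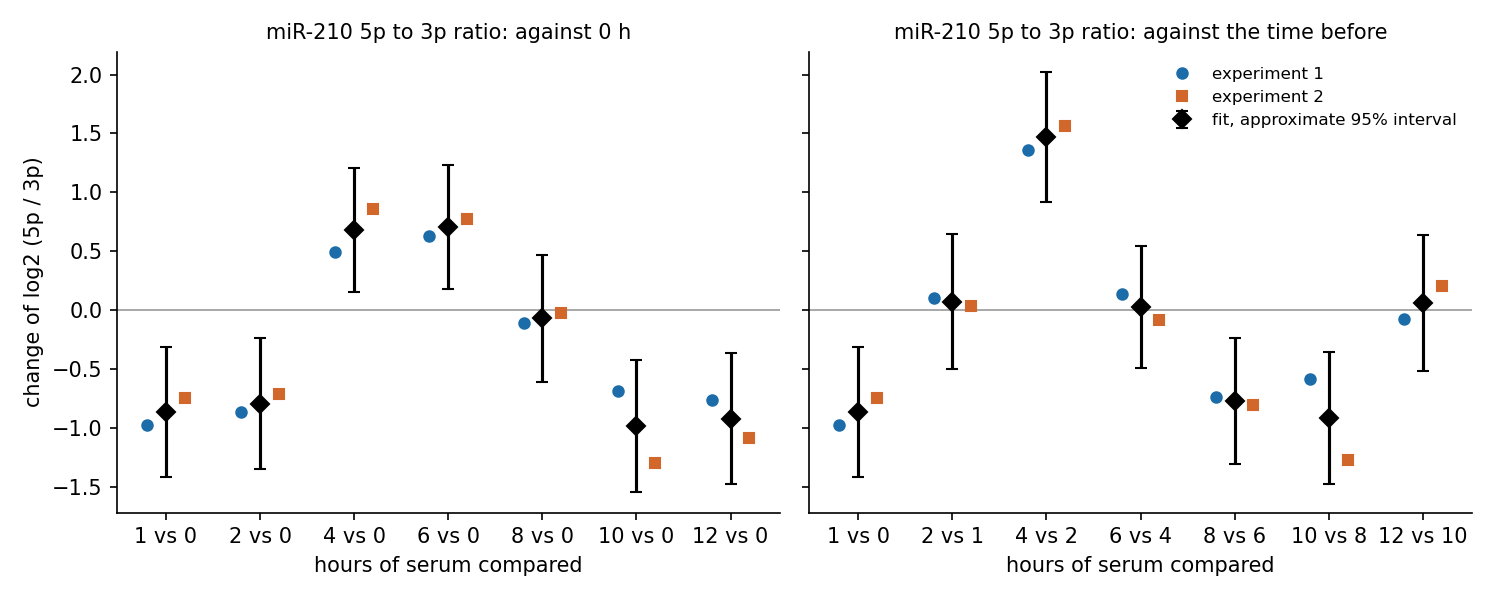
Change of the log2 ratio of miR-210-5p to miR-210-3p against 0 h (left) and against the time before (right); black diamonds are the fit with approximate 95% intervals, circles experiment 1 and squares experiment 2 taken alone. The largest step is the rise of 1.47 between 2 and 4 h, and both experiments share the sign of every difference from 0 h.

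The swing was carried by 5p reads equal to the reference. Such reads made up 84.3% of all 5p reads, and experiments 1 and 2 had 132 and 101 of them at 0 h. After 1 h of serum there were 65 and 62, after 2 h 51 in each. At 4 h there were 202 and 188, at 6 h 189 and 187, and at 8 h 97 and 93. Their count was lowest at 10 h, with 49 and 36, and stood at 67 and 48 at 12 h. With only reference reads of both arms the ratio rose by 1.76 between 2 and 4 h (adjusted p = 0.00198, edgeR quasi-likelihood test). These reads are part of the counts on which the hairpin was chosen, so this p-value is no independent evidence either.

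Read ends were not used to choose the hairpin, and they differed between the arms. Forms are called as the table names them, and it does not state at which end trimmed reads were shortened. Of miR-210-3p reads 44.9% equalled the reference, 24.5% were trimmed, 21.7% carried a non-templated extension at the 3' end and 6.96% a templated one. Of miR-210-5p reads 1.98% were trimmed, 9.69% carried a templated and 3.80% a non-templated 3' extension. A templated extension continues the hairpin, which goes on with U after the 3p arm and with C after the 5p arm. The non-templated 3p reads had mixed bases (1706 reads), A alone (1321), U (237), C (172) or G (37). A U added at the reference end matches the next hairpin base and cannot be told from a templated one, so U may be undercounted. C was added to 9 to 24 reads of miR-210-3p per library in experiment 1 and to 0 to 6 in experiment 2. These ranges did not overlap, and the part of any batch that the header code marks cannot be told apart from that of the experiment. The C-added share of miR-210-3p reads was 0.969% to 2.41% in experiment 1 and 0% to 0.634% in experiment 2. Over all miRNAs C additions were 0.670% to 1.19% of reads in experiment 1 and 0.253% to 0.967% in experiment 2. The A-added reads of miR-210-3p numbered 59 to 90 in experiment 1 and 70 to 108 in experiment 2. As shares of its reads they were 6.33% to 7.49% and 7.39% to 11.6%, higher in experiment 2 at every time. Reads of miR-210-3p extended at the 5' end, in which the seed is shifted, were 0.803% to 1.65% in experiment 1 and 1.70% to 4.18% in experiment 2. Here too the experiment cannot be told apart from a batch that the header code marks. Whether other miRNAs differed in the same way was not tested.

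The trimmed share of miR-210-3p was 23.0% in experiment 1 and 19.9% in experiment 2 at 0 h, then 20.7% and 21.7% after 1 h of serum and 22.7% and 23.2% after 2 h. By 4 h it was 26.1% and 25.1%, by 6 h 25.3% and 26.8%, and by 8 h 26.8% and 22.4%. It ended at 27.1% and 24.8% at 10 h and 28.5% and 28.1% at 12 h. The 12 h libraries were the highest of all 16, and those of 0, 1 and 2 h lay between 19.9% and 23.2%. As any change over time the trimmed share was not called (adjusted p = 0.153, edgeR quasi-likelihood test over 279 miRNAs, of which 12.2% were called), but it was with the experiment as a block (adjusted p = 0.027). As a linear trend, a test added after the values were seen, the log2 odds of trimming rose by 0.0397 ± 0.00956 per hour (SE; adjusted p = 0.00303, edgeR quasi-likelihood test). Such trends were common, with 37.3% of miRNAs called, 54 rising and 50 falling, and 39.8% called with the block. Over the reads of all miRNAs together the trimmed share was 24.6% to 26.6%.

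**Figure D4:**
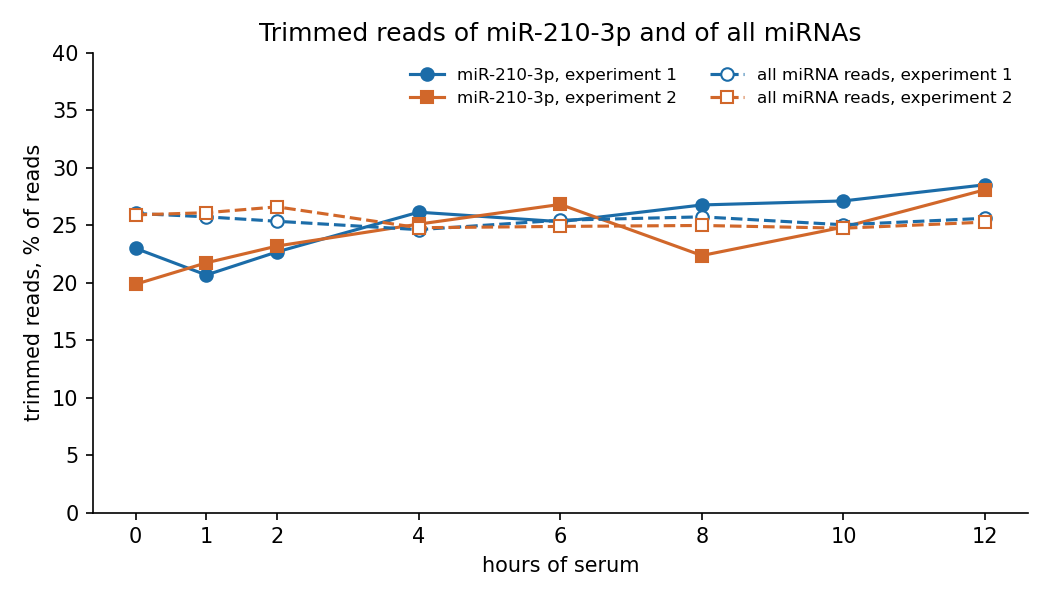
Trimmed reads as a percentage of the reads of miR-210-3p (filled symbols, solid lines) and of all miRNA reads (open symbols, dashed lines) in each library, against hours of serum; circles are experiment 1 and squares experiment 2. The share of miR-210-3p is 19.9% to 23.2% at 0 to 2 h and 28.1% to 28.5% at 12 h, while that of all reads stays between 24.6% and 26.6%.

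The other end forms of miR-210-3p gave no call over time. Its non-templated share was 16.6% to 26.1% (adjusted p = 0.778, edgeR quasi-likelihood test; 14.5% of 234 miRNAs called) and its 3' extended share 21.4% to 31.6% (adjusted p = 0.823; 20.4% of 265 called). For miR-210-5p, with 0 to 12 non-templated reads in a library, these shares were 0% to 16.2% and 6.42% to 32.4%. They were not called in the fit without a block (adjusted p = 0.237 and 0.104, edgeR quasi-likelihood test), but both passed with it (adjusted p = 0.031 and 0.0463), and the extended share also passed without 4 h replicate 2 (adjusted p = 0.0164). The 3' extended share of miR-210-5p was highest at 10 h, at 28.0% ± 6.30 (SD, n = 2), from 36 reads. Its trimmed reads were too few to test.

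By correlation, no other tested miRNA followed miR-210-5p closely. Over the 16 libraries the highest Pearson correlations of log2 CPM with it were those of miR-3620-3p (r = 0.66, mean level 1.37 CPM), miR-3066-3p (0.66, 0.932 CPM), miR-183-3p (0.59, 1.36 CPM), miR-183-5p (0.59, 2030.2 CPM) and miR-671-3p (0.56, 215 CPM). These values share library and scaling, and the median over all tested miRNAs was -0.02. The first 3 are rare. miR-3620-3p averaged 1.51 CPM at 0 h, 1.06 CPM at 1 h, 1.18 CPM at 2 h and 2.05 CPM at 4 h. It then averaged 1.90 CPM at 6 h, 1.74 CPM at 8 h, 1.10 CPM at 10 h and 0.381 CPM at 12 h. Its means thus went down, up and down as well. miR-183-3p was highest at 6 h (1.86 CPM), but at 4 h, when miR-210-5p was high, it averaged 1.28 CPM, below its 1.66 CPM at 0 h. The abundant ones varied in a narrower range. miR-183-5p averaged 1927 CPM at 0 h, 2020.0 CPM at 2 h, 2214 CPM at 6 h and 1916 CPM at 10 h, so that it was not lower at 2 h than at 0 h. miR-671-3p averaged 179.0 CPM at 0 h, 158 CPM at 2 h, 275 CPM at 6 h and 225 CPM at 10 h. With miR-210-3p, miR-344d-3p (r = 0.69), miR-181a-1-3p (0.61) and miR-30e-3p (0.58) had the highest values. The arms of miR-210 had r = 0.16 with each other.

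Other miRNAs from hairpins described as hypoxia-responsive or HIF-regulated in other cells moved in several ways. The list was drawn up by hairpin and holds every measured arm, so it includes passenger strands not themselves chosen for such a response. Of the 32 measured past the filter (37 in the table), 7 changed over the course (21.9%), beside 13.8% of all miRNAs tested. At 12 h 4 of them rose (12.5%, beside 8.24% of all), 2 fell (6.25%, beside 6.01%) and 26 were not called, with a median log2 difference of -0.07, against 0.00 over all miRNAs tested. The count of 7 was 3 or 4 without 0 h replicate 1, 0 h replicate 2, 1 h replicate 2, 2 h replicate 1, 2 h replicate 2 or 4 h replicate 2 (9.38% to 12.5%, beside 7.64% to 11.4% of all). With the experiment as a block it was 13 (40.6%, beside 24.5% of all). Those that rose at 12 h were both arms of miR-155, miR-27a-5p (1.15 ± 0.30, SE, log2) and miR-21a-5p (0.59 ± 0.18; adjusted p = 0.02 and 0.0434, edgeR quasi-likelihood test), and those that fell were miR-26a-2-3p and miR-24-1-5p. miR-27a-5p and miR-21a-5p, named here after their values were seen, lost the call with total counts (0.99 and 0.43), and each of them and miR-24-1-5p lost it without either 0 h library or without 12 h replicate 2, where 2 rose and 1 fell. Without 12 h replicate 1 miR-21a-5p and miR-24-1-5p lost it as well, and miR-21a-5p also without either 1 h library. The balance at 12 h also turned with the setting. With total counts 2 rose and 4 fell (beside 5.12% and 10% of all miRNAs), and with the block 4 rose and 6 fell (beside 11.8% and 12.2%). When a mean of 10 CPM was required, 3 rose and 0 fell of the 24 left (beside 10.5% and 6.77% of all miRNAs). There miR-155-3p, miR-26a-2-3p and miR-24-1-5p, which averaged below 10 CPM, were not tested, so none of their calls turned. The list was chosen with earlier results of these data known.

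The 7 were both arms of miR-155, a HIF-1 target in inflamed gut, and 5 passenger strands. Like miR-210-5p, miR-155-5p stood high at 4 h (384 ± 41.9 CPM, SD, n = 2), but it was still at 282 ± 43.9 CPM at 12 h, against 79.7 ± 5.04 CPM at 0 h (adjusted p = 1.06e-05, edgeR quasi-likelihood test of any change). miR-155-3p was highest at 2 h, at 31.1 ± 2.09 CPM, within the first trough of miR-210-5p (adjusted p = 1.23e-06). miR-26a-2-3p, from the miR-26 family, stood at 2.93 ± 0.107 CPM at 6 h, the peak of miR-210-5p, and at 22.8 ± 1.41 CPM at 0 h (adjusted p = 5.67e-06). miR-181a-1-3p stood at 76.5 ± 10.4 CPM at 2 h, against 143 ± 17.3 CPM at 0 h, and was back at 135 ± 0.0662 CPM at 12 h (adjusted p = 0.0226). This last call was lost without 8 of the 16 libraries, namely either library of 1, 2 or 12 h, 0 h replicate 1 or 4 h replicate 2 (adjusted p up to 0.0947).

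miR-24-1-5p averaged 6.28 ± 0.209 CPM at 12 h and 11.5 ± 1.58 CPM at 0 h (SD, n = 2; adjusted p = 0.0421, edgeR quasi-likelihood test of any change). miR-26a-1-3p averaged 6.11 ± 1.12 CPM at 0 h, was highest at 1 h (8.80 ± 3.71 CPM) and lowest at 6 h (2.64 ± 1.12 CPM), and stood at 4.75 ± 0.0470 CPM at 12 h (adjusted p = 0.0461 for any change). miR-26b-3p averaged 23.4 ± 4.996 CPM at 0 h, was highest at 1 h (24.9 ± 7.46 CPM) and lowest at 10 h (10.8 ± 3.20 CPM), and stood at 14.4 ± 0.732 CPM at 12 h (adjusted p = 0.0183 for any change). At 12 h against 0 h neither was called (adjusted p = 0.6 and 0.0883, edgeR quasi-likelihood test). The call of miR-24-1-5p held without replicate 1 of 6, 8 or 10 h and was lost without any of the other 13 libraries (adjusted p up to 0.114). That of miR-26a-1-3p held without replicate 1 of 1 or 6 h or either 10 h library and was lost without any of the other 12 (up to 0.126). That of miR-26b-3p was lost without 0 h replicate 2 or 1 h replicate 2 (up to 0.0663). Across the list the correlation of log2 CPM with miR-210-5p over the 16 libraries ran between -0.70 and 0.32.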

How the data were processed

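Small RNA from 16 libraries (8 times, 2 independent experiments) was measured. The values deposited by the authors are raw read counts for each mature miRNA and sequence class, per the file headers; libraries were made with the Illumina TruSeq small RNA kit from miRNeasy RNA, per the labels' protocols. The submitters' processing notes list CASAVA 1.8.0. The sources used here name no aligner, miRBase release or build, so how reads matching several miRNAs were shared is unknown. Of 6511 entries 1 exact duplicate was dropped. The 8 classes were summed, which leaves out entries that repeat non-templated reads by base. The 2 replicates of each time differed beyond counting noise (chi-square per degree of freedom 69.4 to 372).

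edgeR 4.0.16 (R 4.3.3, limma 3.58.1) quasi-likelihood tests used filterByExpr (minimum count 10), and calls were made at a Benjamini-Hochberg adjusted p of 0.05. Levels used TMM (factors 0.935 to 1.07) and time as a factor. Arms, and classes with at least 10 reads inside and outside in 2 libraries, were fitted as paired columns with a term per library, arm or class, and its interaction with time. SE is the size of a change over the square root of F. Both fits were tested on simulated data. Correlations used log2 of CPM plus 0.5. Alternatives were DESeq2 1.42.0, limma, other filters and scalings, and leaving out each library.

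The experiment numbers were taken to pair the libraries, as the series design speaks of independent experiments over the whole course. Differences between experiments correlated at 0.134 to 0.602 (28 pairs of times). Since each experiment has its own header code, this correlation cannot tell paired cultures from a shared batch. Members, lists and tests were chosen with earlier results of these data known. The named miRNAs were the members, those most correlated with either arm (5 and 3), the hypoxia-linked miRNAs called for any change, and the 3 hairpins with the smallest p for the arm difference. A further time point named in the series design was not analysed here.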

Additional observations from a re-analysis of the deposited data

How the results depend on the processing

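The change of the miR-210 arm ratio over time kept its call in all 6 other settings and without any single library (adjusted p 7.21e-05 to 0.000775 without 1 library; 3.73e-07 with the replicate block), as did the rise between 2 and 4 h (1.28 to 1.66 without 1 library). These refits reuse the counts on which the hairpin was chosen, so the kept calls are no independent evidence of the difference. Scaling cannot move the arm ratios, since each library has its own term. The 10 h and 12 h calls were lost without a low-count filter (-0.98 and -0.92), where more hairpins were tested, and the 12 h call with reference reads only (-0.70; the cause was not tested). Without 1 library these 2 ranged from -1.29 to -0.70 and from -1.08 to -0.77. With the replicate block the 6 h rise passed (0.70), as did the trimmed share of miR-210-3p (adjusted p = 0.027), which also passed as a linear trend without and with the block (0.00303 and 0.00146, both chosen after seeing the data); no other call on the ratio or on miR-210-3p was altered by the block. Hairpins called for any arm change numbered 26 with the replicate block and 8 when a mean of 10 CPM was required. miRNAs called for any change in level numbered 101 with no filter on counts, 39 when 10 CPM on average was required, 110 with the replicate block and 36 to 60 without 1 library. Of the 32 hypoxia-linked miRNAs, 13 were called with the block (40.6%, beside 24.5% of all) and 13 with no filter on counts (40.6%, beside 8.65%). With no filter the list stayed at these 32 while all 1167 miRNAs were tested, so the shares are not comparable. At 10 CPM 3 of 24 were called (12.5%, beside 14.7% of all). miR-155-3p, miR-26a-1-3p, miR-26a-2-3p and miR-24-1-5p averaged below 10 CPM and were not tested there. Hypoxia-linked miRNAs higher at 12 h were 2 with total counts (beside 5.12% of all). Those lower at 12 h were 4 with total counts (beside 10% of all), 0 at 10 CPM (beside 6.77%) and 6 with the block (beside 12.2%). Of 308 refitted level differences of both arms from 0 h, 281 moved by less than 1 SD between replicates. This count says little about stability, since leaving out a later library alters only the difference of its own time, apart from scaling. Without 0 h replicate 1 every difference of both arms moved by more, and without 0 h replicate 2 every difference of miR-210-3p did. With 51 to 222 reads of miR-210-5p per library and 2 libraries per time, the SE of an arm ratio difference was 0.25 to 0.27 on the log2 scale.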
